A study of Homo sapiens with 24 samples.

Results

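The genes described here make, move and sense cholesterol: 30 genes listed by name, of which 28 had a probe set with a single gene symbol, out of 19775 genes with such a probe set on the arrays. They were the 7 measured enzymes of the mevalonate steps, the 9 measured enzymes of the later sterol steps, SREBF2 with its escort SCAP and the retention proteins INSIG1 and INSIG2, 3 carriers of cholesterol inside the cell, 3 targets of the liver X receptors (LXRs), the oxysterol-forming enzyme CH25H and the phosphatidate phosphatase LPIN1. FDFT1 and CYP51A1, both enzymes of the sterol steps, were listed but not analysed here. Each gene was read from its probe set of highest mean signal across the arrays, and all 28 passed the filter on dim signals that left 14141 genes to test. CH25H passed it only through the MCT1 shRNA arrays, its mean log2(signal + 16) being 5.85 over all arrays and 5.50 without them, against a filter of 5.58; no other measured member fell under it without any 1 group. No measured value was used to choose the list, but it was drawn up with earlier results of these data known.

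Cholesterol is built in the endoplasmic reticulum from acetyl-CoA, first through mevalonate to farnesyl diphosphate, then through squalene and lanosterol to the finished sterol. Its supply is held in balance by SREBP2, the transcription factor encoded by SREBF2. When membrane cholesterol is low, SCAP carries SREBP2 to the Golgi, where it is cut and released to raise genes of synthesis and uptake, and when cholesterol or oxysterols are plentiful the INSIG proteins keep SCAP in the endoplasmic reticulum. Oxysterols also activate the LXRs, which raise genes of cholesterol export, so that the same signal can lower synthesis and raise export.

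RNA came from 3 established human breast cancer cell lines on 24 Affymetrix arrays, in 8 groups of 3. HS578T, SUM149PT and SUM159PT cells were given the vehicle DMSO or AZD3965, which blocks MCT1, a membrane carrier of lactate and pyruvate, for 24 hours; the concentration was not given in the sources used here. SUM149PT cells were also infected with a lentivirus carrying a scrambled shRNA or an shRNA against MCT1 and selected in puromycin at 2 µg/ml for 5 days. All cells were grown with serum, HS578T in one medium and both SUM lines in another that also held insulin, hydrocortisone and EGF, so HS578T and its medium cannot be told apart. The question of the study was whether MCT1 contributes to the metabolism of highly glycolytic cells. The labels do not say that the 3 arrays of a group came from separate cultures, and p-values therefore measure only the spread between these arrays. The level of the targeted transcript was not analysed here, so the knockdown was not checked.

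Values are MAS5 signals, a linear scale in arbitrary units on which different genes cannot be ranked against each other. Changes are differences of log2(signal + 16) with their standard errors (SE), which understate the change of dim genes, and a gene was called at an adjusted p under 0.05 by limma over all 14141 genes. On the third scramble array the 3′ to 5′ signal ratio was 53.8 for actin and 2.35 for GAPDH, against 1.20 to 2.14 and 0.798 to 0.948 on the other arrays, so the counts of genes called with the shRNA are also given without it. Summed signals of 4 epithelial markers ran from 5874 to 6332 in HS578T, 9369 to 13230 in SUM159PT and 37130 to 54230 in SUM149PT, and those of 3 mesenchymal markers from 65060 to 69880, 47300 to 65590 and 17420 to 33720. The sums for leukocyte (3 of 4 markers measured), endothelial, adipocyte and hepatocyte markers did not exceed 570, 450.1, 228 and 98.2. In these bulk samples fewer cells expressing a gene and less RNA per cell cannot be told apart.

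In SUM149PT cells, 4 mevalonate enzymes, the sterol enzyme SQLE, INSIG1 and the carriers STARD4 and NPC2 were lower with the MCT1 shRNA than with scramble. The export pump ABCA1 and the oxysterol enzyme CH25H were higher. Of 28 members 10 were called, against 14.9% of all genes tested. 8 were lower, against 7.64% of genes, and 2 were higher, against 7.22%. CH25H, among the 2 higher here and without the third scramble array, passed the filter only through the MCT1 shRNA arrays. It had to differ to be tested, so of the higher calls only ABCA1 can be read against these shares. The median change over the 28 members was -0.17, that over all genes was -0.0034, and 17 members (60.7%) lay below 0 as did 50.5% of all genes. Without the third scramble array 6 were called lower, against 6.12% of genes, and 2 higher, against 6.15%; the median was -0.16, that of all genes 8e-04, and 17 members lay below 0. IDI1 and NPC2 were the calls lost. A fit on the 6 arrays of this experiment alone called 4, and the share of all genes called in that fit is not given here.

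**Figure D1:**
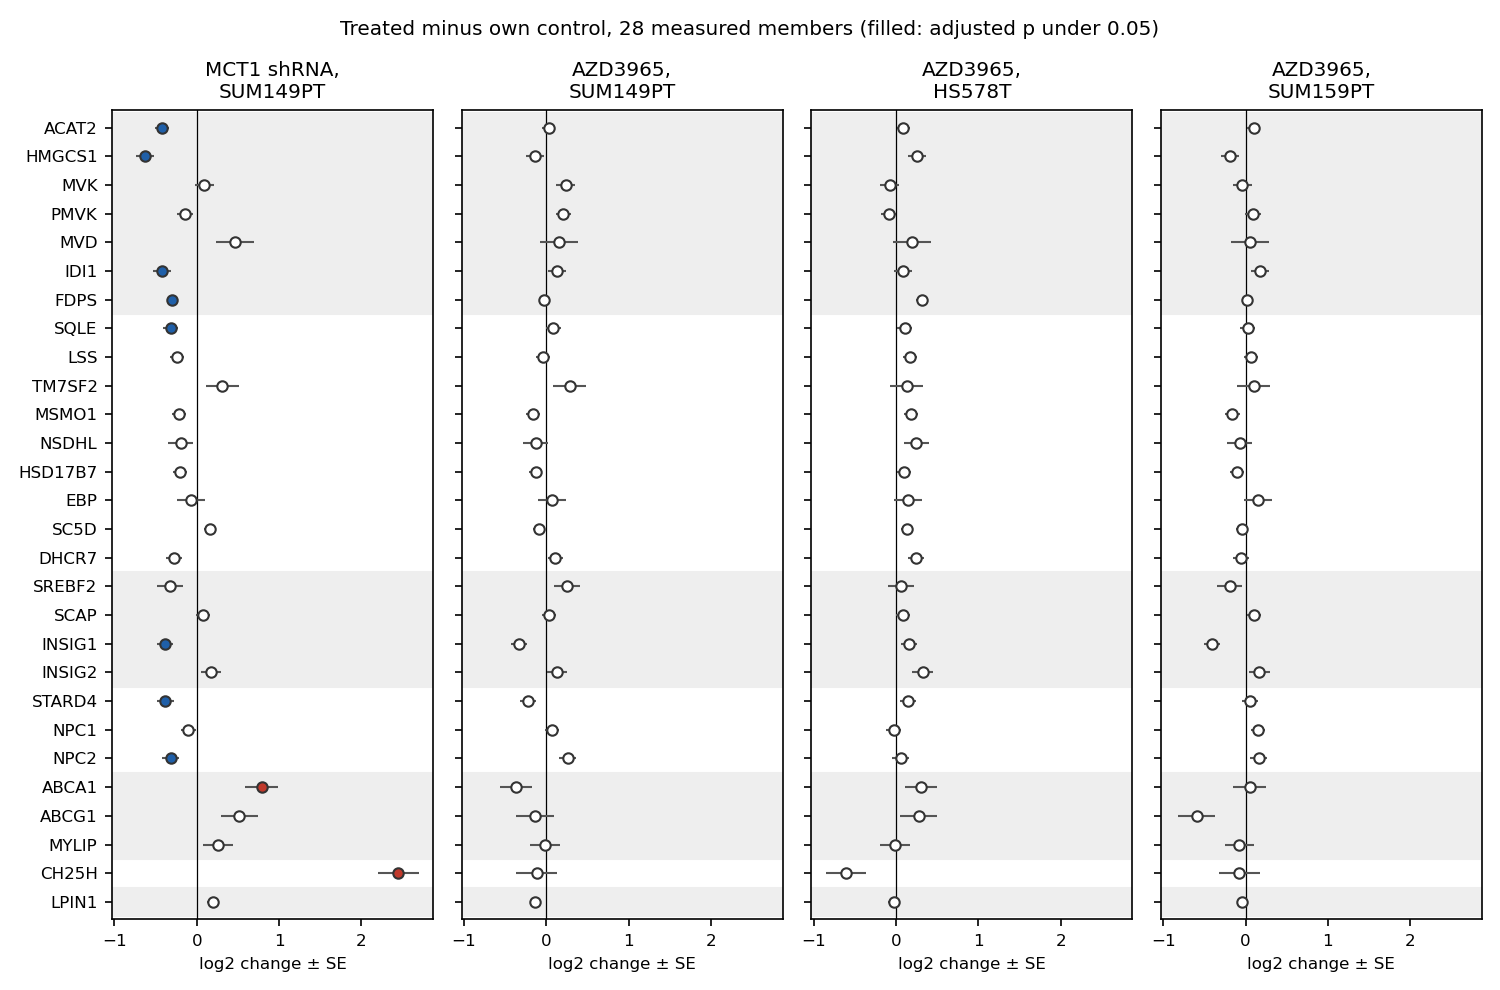
Log2 change (x axis, treated minus its own control, ± SE) of the 28 measured members, ordered by role from the mevalonate steps at the top to LPIN1 at the bottom, shaded by role. Filled points, 8 lower in blue and 2 higher in red, were called at an adjusted p under 0.05; they occur only in the MCT1 shRNA panel, where CH25H lies farthest to the right at 2.45.

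The mevalonate steps gave 4 of the 8 lower calls among 7 enzymes, and 3 without the third scramble array. HMGCS1, which condenses acetoacetyl-CoA and acetyl-CoA to HMG-CoA, had signals of 538, 468 and 504 on the scramble arrays and 299, 334 and 328 on the shRNA arrays. The groups did not overlap, and HMGCS1 fell by 0.63 ± 0.11 (adjusted p = 2.93e-04 by limma). The second HMGCS1 probe set gave a difference of -0.49. ACAT2, the cytosolic thiolase that feeds this step, read 2547, 2335 and 2607 in scramble and 1889, 1808 and 1885 in shRNA cells. Every shRNA array lay under every scramble array, a fall of 0.42 ± 0.08 (adjusted p = 9.82e-04 by limma).

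IDI1, the isomerase that makes the allylic isoprene unit, read 6342, 5814 and 8064 in scramble and 5005, 4774 and 5154 in shRNA cells. The third scramble array was the highest of the 6, and the groups were apart. The fall was 0.42 ± 0.11 (adjusted p = 0.0107 by limma); without that array the difference was -0.29 (adjusted p = 0.0781 by limma). The IDI1 probe set is of a kind that can share probes with related transcripts; another of this kind gave -0.43, and the remaining 2 gave -0.01 and 0.17, so the mean of all 4 was not called. FDPS, which joins these units to farnesyl diphosphate, read 5805, 5453 and 6599 in scramble and 4792, 4889 and 4794 in shRNA cells. These groups did not overlap either, and FDPS fell by 0.30 ± 0.07 (adjusted p = 0.00476 by limma). The remaining enzymes of this arm, MVK, PMVK and MVD, were not called; the kinase MVK differed by 0.09, the kinase PMVK by -0.14, and the decarboxylase MVD by 0.46 ± 0.23 with overlapping arrays (32.9 to 69.7 in scramble, 56.9 to 107 in shRNA cells).

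Of the 9 measured enzymes of the sterol steps 1 was called. At an unadjusted p under 0.05 in the same limma fit there were 6, against 27.7% of all genes. The median change of the 9 was -0.20. SQLE, the squalene epoxidase that takes squalene into the sterol branch, read 1837, 2344 and 1799 in scramble and 1687, 1466 and 1608 in shRNA cells. The groups were apart by a narrow margin, a fall of 0.32 ± 0.09 (adjusted p = 0.0198 by limma). The other SQLE probe sets did not move as one: they gave -0.69, -0.14 and 0.51, and the mean of all 4 was not called. Without the second shRNA or the second scramble array the difference was -0.26 and -0.20 (adjusted p = 0.103 and 0.126 by limma). The 8 enzymes that were not called had a range of -0.27 for DHCR7 (adjusted p = 0.0535 by limma), the reductase of the last double bond, to 0.31 for TM7SF2 (adjusted p = 0.338), a sterol reductase. The second DHCR7 probe set gave -0.49, and the mean of its probe sets was called at -0.38 (adjusted p = 0.00465 by limma). With array weights DHCR7 was called lower and SC5D higher. Without the second scramble array DHCR7, LSS, MSMO1 and HSD17B7 were called lower. Of the 9 enzymes 7 were below 0, and without the third scramble array SQLE was again the 1 called and 7 lay below 0.

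Within the SREBP2 machinery the call fell on INSIG1, itself an SREBP2 target. It read 2186, 2026 and 2045 in scramble and 1702, 1548 and 1521 in shRNA cells. The arrays did not overlap, a fall of 0.39 ± 0.10 (adjusted p = 0.00806 by limma), and its other probe sets gave -0.70 and -0.21. Its relative INSIG2, the second retention protein, was not called, at 0.17 ± 0.13. SREBF2 differed by -0.33 ± 0.16 (adjusted p = 0.181) and the escort SCAP by 0.08 ± 0.08 (adjusted p = 0.613), neither of them called.

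Among the carriers, STARD4, which shuttles cholesterol between membranes through the cytosol, read 596, 632 and 543 in scramble and 423, 474 and 452 in shRNA cells. The groups were apart, and STARD4 fell by 0.38 ± 0.10 (adjusted p = 0.0117 by limma), with -0.34 (adjusted p = 0.0578) when the first shRNA array was left out. NPC2, the lysosomal protein that hands cholesterol to NPC1, read 14210, 13130 and 18070 in scramble and 11200, 12680 and 12310 in shRNA cells. Here the gap between groups was narrow and the third scramble array again stood highest. NPC2 fell by 0.32 ± 0.10 (adjusted p = 0.0427 by limma), the difference without that array was -0.18 (adjusted p = 0.262 by limma), and leaving out any 1 of the 3 shRNA arrays also ended the call. Its membrane partner NPC1 differed by -0.10 ± 0.09 and was not called.

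On the export side ABCA1, the pump that loads cholesterol onto apolipoproteins, read 70.1, 57.1 and 51.5 in scramble and 106, 146 and 94.3 in shRNA cells. All shRNA arrays were above all scramble arrays, a rise of 0.79 ± 0.20 (adjusted p = 0.00813 by limma). The shRNA mean of 115.6 was still under both SUM149PT means of the inhibitor experiment. These were 186.4 ± 42.71 under DMSO and 138.9 ± 10.95 under AZD3965 (SD, n = 3). Another ABCA1 probe set of similar signal gave 0.67 and the 2 dim ones 0.38 and -0.20; the mean of all 4 gave 0.41 (adjusted p = 0.102), and without the second shRNA array the difference was 0.63 (adjusted p = 0.0607), both by limma. The other LXR targets were not called: the pump ABCG1 differed by 0.52 ± 0.23 (adjusted p = 0.137), though its arrays did not overlap (32.5 to 63.1 against 69.9 to 76.2), and MYLIP, a ubiquitin ligase that removes lipoprotein receptors, by 0.26 ± 0.18 (adjusted p = 0.392).

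CH25H, which makes 25-hydroxycholesterol and is also an interferon-responsive gene, changed most of all members. It read 40.8, 38.8 and 45.7 in scramble cells and 299.8, 269 and 330.5 in shRNA cells. The lowest shRNA array was far above the highest scramble array. The rise was 2.45 ± 0.25 (95% interval 1.94 to 2.96, adjusted p = 2.56e-07 by limma). Because these arrays carried the gene over the filter, it had to differ to be tested; with no filter it was called as well. In SUM149PT cells of the inhibitor experiment CH25H lay between both, at 83.6 ± 5.70 under DMSO (SD, n = 3) and 77.1 ± 20.7 under AZD3965. LPIN1, a phosphatidate phosphatase and SREBP target, read 1366, 1294 and 1310 in scramble and 1507, 1511 and 1530 in shRNA cells; these did not overlap, but the difference of 0.19 ± 0.07 was not called (adjusted p = 0.0662 by limma). The epithelial marker sum moved with the shRNA as well, from 37130 to 41490 in scramble cells to 48900 to 54230, and its part in these differences was not tested.

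**Figure D2:**
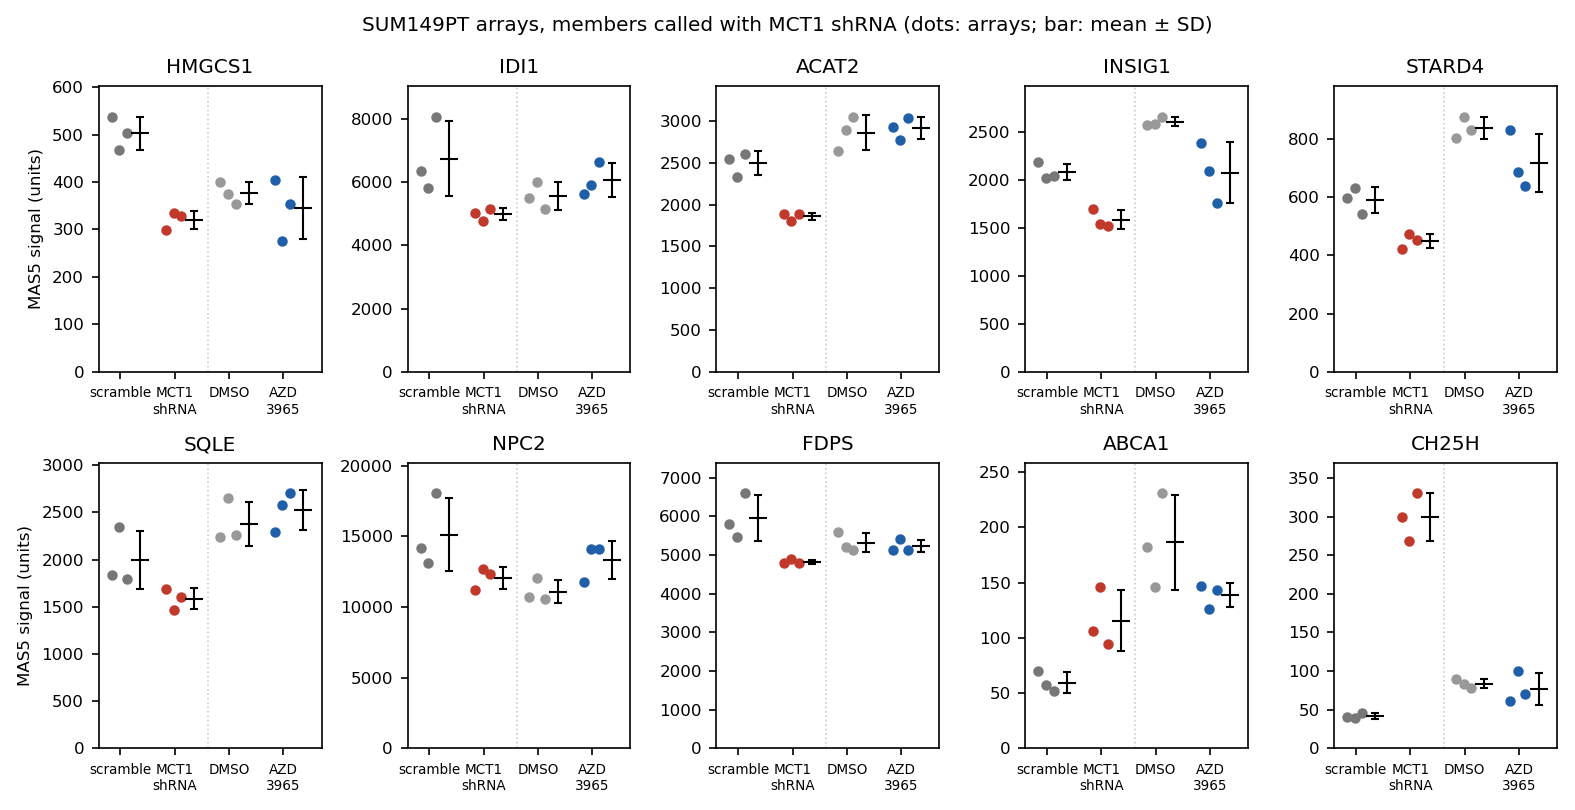
MAS5 signal (y axis, linear from 0) on each SUM149PT array for the 10 members called with the MCT1 shRNA; dots are arrays and bars the mean ± SD of 3 arrays, with the shRNA experiment left and the inhibitor experiment right of the dotted line. The scramble and shRNA dots are apart in all 10 panels, while DMSO and AZD3965 dots overlap in all but the INSIG1 panel.

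The stretches upstream of the members' start sites were described by 4 short sequence words, for members called and not called alike. RefSeq windows (GRCh38.p14) of 250 bases before a start were searched on both strands, and 26 of the 30 listed members had an entry. The NF-Y box CCAAT, bound by the factor that works beside SREBP2 at many sterol genes, was in 18 of 26 members (69.2%), against 40.2% of protein-coding genes with an entry and 37% of all genes. All 6 members with an entry that fell with the shRNA (FDPS, HMGCS1, IDI1, INSIG1, NPC2 and STARD4) held it, as did 12 of 17 that were not called and 0 of the 2 that rose, ABCA1 and CH25H. IDI1 and NPC2 lost their calls without the third scramble array, which left 4 such members, each with the box. The GC box GGGCGG was in 25 of 26 members (96.2%) against 62.1% of protein-coding genes, and the E-box CACGTG in 4 (15.4%) against 9.73%. The sterol element-like word TCACNCCAC was in 1 member, SREBF2, against 1.19% of protein-coding genes. None of the 4 words contains another. The matches describe the letters of these windows and were not tested.

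The stretches below are 110 bases, 5′ to 3′ on the strand of the gene, for the 6 members that fell, for SREBF2, and for the 2 that rose; capitals mark CCAAT or its reverse complement ATTGG, and in SREBF2 also the sterol element-like word. They lie at chr5:43313458-43313567 (HMGCS1, minus strand), chr10:1048919-1049028 (IDI1, minus), chr1:155308756-155308865 (FDPS, plus), chr7:155297653-155297762 (INSIG1, plus), chr5:111512611-111512720 (STARD4, minus), chr14:74493572-74493681 (NPC2, minus), chr22:41832930-41833039 (SREBF2, plus), chr9:104928156-104928265 (ABCA1, minus) and chr10:89207318-89207427 (CH25H, minus).
HMGCS1: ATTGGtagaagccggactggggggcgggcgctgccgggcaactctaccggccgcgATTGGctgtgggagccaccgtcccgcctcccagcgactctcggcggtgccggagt
IDI1: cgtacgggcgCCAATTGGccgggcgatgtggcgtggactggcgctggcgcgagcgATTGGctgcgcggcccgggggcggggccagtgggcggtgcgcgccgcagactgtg
FDPS: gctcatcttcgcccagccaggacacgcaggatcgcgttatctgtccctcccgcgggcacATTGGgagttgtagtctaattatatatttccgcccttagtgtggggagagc
INSIG1: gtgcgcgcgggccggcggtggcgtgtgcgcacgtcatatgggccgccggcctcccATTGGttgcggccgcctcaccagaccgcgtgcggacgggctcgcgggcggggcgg
STARD4: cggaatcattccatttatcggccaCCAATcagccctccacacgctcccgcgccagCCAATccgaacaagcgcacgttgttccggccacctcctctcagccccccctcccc
NPC2: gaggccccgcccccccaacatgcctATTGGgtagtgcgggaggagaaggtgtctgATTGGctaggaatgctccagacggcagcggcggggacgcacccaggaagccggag
SREBF2: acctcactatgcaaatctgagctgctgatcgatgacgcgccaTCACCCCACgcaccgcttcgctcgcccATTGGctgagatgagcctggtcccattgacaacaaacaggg
ABCA1: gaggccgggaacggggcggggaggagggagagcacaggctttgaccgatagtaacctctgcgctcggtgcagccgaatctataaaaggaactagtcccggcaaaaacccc
CH25H: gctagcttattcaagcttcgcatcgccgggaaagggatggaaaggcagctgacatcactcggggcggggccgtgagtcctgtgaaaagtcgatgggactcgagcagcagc
HMGCS1, STARD4 and NPC2 each show 2 boxes within these stretches and IDI1 shows 3, a pair of them formed by overlapping words on opposite strands. HMGCS1, IDI1 and NPC2 have more than 1 window, of which 1 is shown. ABCA1 and CH25H show none here nor in the rest of their 250 bases.

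AZD3965 called 0 of the 28 members in any line. The background was 0.304% of genes in HS578T, 0.0283% in SUM149PT, 0% in SUM159PT and 0.0283% for the average over lines, so few calls of any kind were made in these comparisons. At an unadjusted p under 0.05 in the same limma fit there were 6 members in HS578T (21.4%, against 8.28% of genes), 4 in SUM149PT (14.3%, against 16.5%), 2 in SUM159PT (7.14%, against 6.75%) and 4 for the average (14.3%, against 14.5%). The last 3 shares were near those of all genes. The F test comparing the 3 inhibitor effects with each other called 0 members, against 0.12% of genes.

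In HS578T cells most members lay slightly above their DMSO value. This held for 22 of 28 (78.6%, against 45.1% of all genes), including 14 of the 16 enzymes, with a median of 0.13 against -0.02 for all genes. FDPS came nearest to a call: it read 6956, 7192 and 7010 under DMSO and 8914, 8691 and 8700 under AZD3965. The groups did not overlap, and the difference was 0.31 ± 0.07 (adjusted p = 0.0519 by limma). HMGCS1 read 4775, 4470 and 4326 against 5389, 5142 and 5680, also without overlap, a difference of 0.26 ± 0.11 (adjusted p = 0.505). INSIG2 differed by 0.32 ± 0.13 and DHCR7 by 0.24 ± 0.09 (adjusted p = 0.428 for both), and the dim CH25H by -0.60 ± 0.25 (adjusted p = 0.47).

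In the SUM lines the members were spread around 0, with 14 of 28 above it in SUM149PT (median 0.01, all genes 0.04) and 15 of 28 in SUM159PT (median 0.02, all genes 0.00). INSIG1 stood out in the values without being called. In SUM149PT it read 2579, 2591 and 2665 under DMSO and 2389, 2093 and 1760 under AZD3965, a difference of -0.34 ± 0.10 (adjusted p = 0.144 by limma). In SUM159PT it read 1785, 1441 and 1697 against 1285, 1354 and 1075, a difference of -0.40 ± 0.10 (adjusted p = 0.426 by limma). In both lines the treated arrays lay below all control arrays, whereas in HS578T they lay above them (9253, 9913 and 9749 against 10530, 10630 and 11000), a difference of 0.15 ± 0.10. The F test of these effects between lines gave an adjusted p of 0.159. The other INSIG1 probe sets gave -0.05 and 0.05 in SUM149PT and -0.15 and -0.04 in SUM159PT.

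Within SUM149PT the shRNA effect was set against the AZD3965 effect, each taken from its own control. Of 28 members 7 differed between both, against 9.52% of genes: 4 were lower with the shRNA, against 4.94%, and 3 were higher, against 4.58%. CH25H, among the higher, passed the filter only through the MCT1 shRNA arrays and cannot be read against these shares. The lower ones were ACAT2 (difference of effects -0.45 ± 0.12), HMGCS1 (-0.49 ± 0.15), IDI1 (-0.55 ± 0.16) and NPC2 (-0.58 ± 0.15), and the higher ones ABCA1 (1.16 ± 0.28), CH25H (2.57 ± 0.35) and LPIN1 (0.33 ± 0.10). The calls of HMGCS1, LPIN1 and IDI1 depended on the setting, being lost in 16, 13 and 9 of 21 alternatives. For INSIG1 both effects pointed down, and their difference was -0.05 with a 95% interval from -0.34 to 0.23, but its other probe sets gave -0.66 and -0.27. Duration, selection and control differed along with the agent in this comparison, and these cannot be told apart. With each array centred on its median, ABCA1 and CH25H were the 2 members called, and 4 were called without the first or the third DMSO array or without the first or the second shRNA array. Without the third scramble array 6 were called: HMGCS1, IDI1 and LPIN1 were lost, and PMVK and SQLE were gained. The shares of all genes called in these other fits are not given here.

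Of the 34 measured genes among 38 others of the pathway 6 were called with the shRNA, 2 higher and 4 lower, with a median of -0.04 over the 34. This share of 17.6% was near the 14.9% of all genes. LIPA, the lysosomal acid lipase that frees cholesterol from esters, had a mean of 3524 ± 207 in scramble and 5494 ± 372 in shRNA cells (SD, n = 3) and rose by 0.64 ± 0.09 (adjusted p = 2.18e-05 by limma). LBR, the lamin B receptor with sterol reductase activity, went from 10100 ± 489 to 6946 ± 285 and fell by 0.54 ± 0.07 (adjusted p = 2.03e-05). Neither range overlapped that of its control. MBTPS2, the site-2 protease that releases SREBP2, went from 2998 ± 156 to 2230 ± 119 and fell by 0.42 ± 0.07 (adjusted p = 1.98e-04), and the late endosomal carrier STARD3 from 234 ± 89.8 to 123 ± 26.2, a fall of 0.80 ± 0.18 (adjusted p = 0.00439); without the third scramble array STARD3 differed by -0.52 (adjusted p = 0.0363), by limma. The site-1 protease MBTPS1 rose by 0.37 ± 0.11 (adjusted p = 0.027) and ERG28, a scaffold of sterol enzymes, fell by 0.26 ± 0.07 (adjusted p = 0.0102); both were named after their values were seen, to complete the count. Without the third scramble array 3 were called higher and 4 lower, against 6.15% and 6.12% of all genes. AZD3965 called 0 of the 34 in each line.

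More members differed between the 3 lines under DMSO than with any treatment. The F test over lines called 27 of 28 members, against 77% of all genes; INSIG2 was the exception, with means of 669 ± 90.5 in HS578T, 764 ± 120 in SUM149PT and 733 ± 96.7 in SUM159PT. HS578T had the highest mean of 16 members, 12 of them among the 16 enzymes, and SUM159PT the lowest of 14. HS578T was called higher than both other lines for 14 of 28 members (50%, against 17.1% of all genes) and for 11 of the 16 enzymes (68.8%), and lower than both for 3 members (10.7%, against 19.5%), which were EBP, ABCA1 and ABCG1.

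By pairs, HS578T against SUM149PT called 26 members, against 64.2% of genes, with 17 higher in HS578T (30.4% of genes) and 9 lower (33.8%). HS578T against SUM159PT called 22, against 58%, with 18 higher (27.3%) and 4 lower (30.7%). SUM149PT against SUM159PT called 18, against 59.4%, with 13 higher in SUM149PT (30%) and 5 lower (29.3%). The median difference over members was 0.41, 0.83 and 0.24 in these pairs, and over all genes -0.02, -0.03 and -0.02. The mesenchymal marker sum was highest in HS578T as well, and its part in these differences was not tested.

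**Figure D3:**
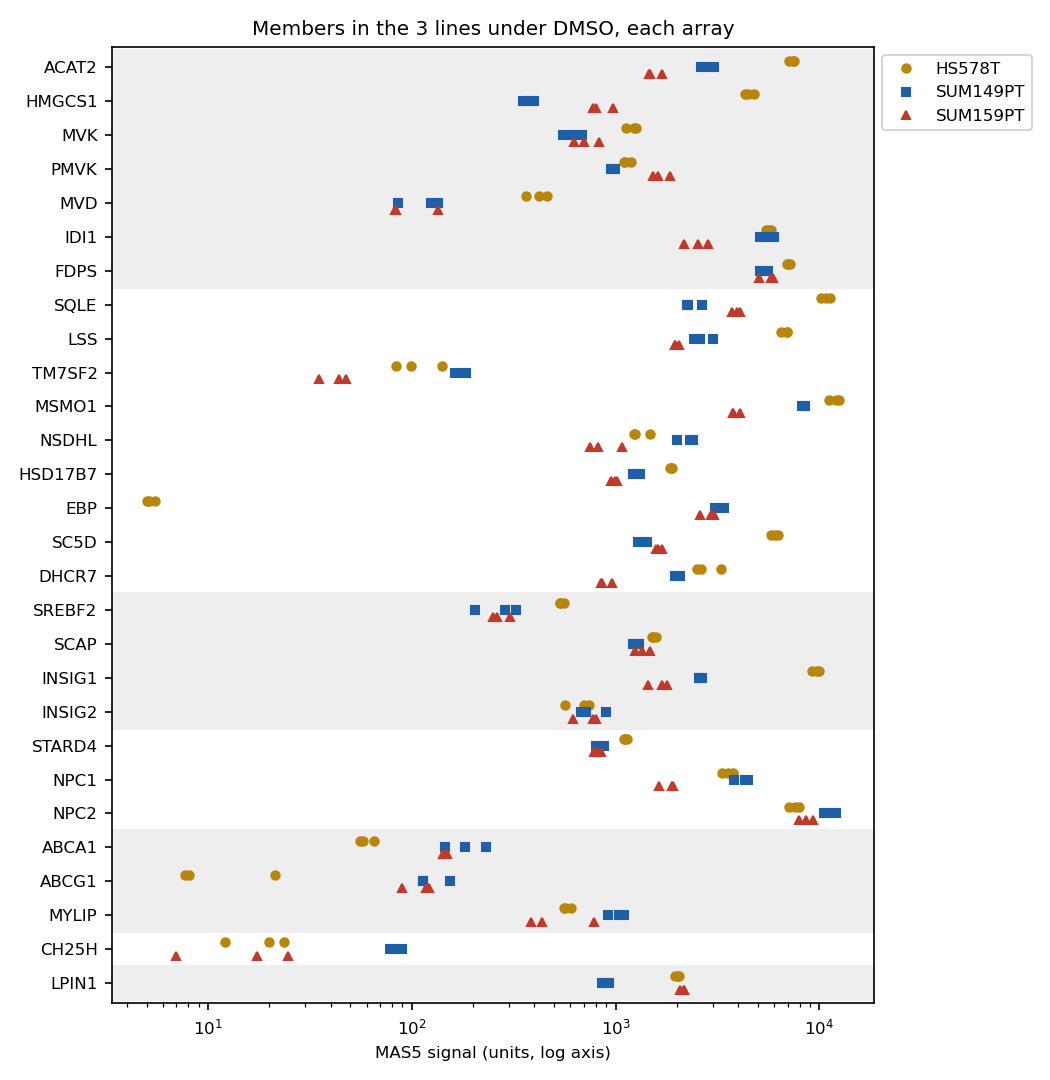
MAS5 signal (x axis, log scale) of each member on the 9 DMSO arrays, with HS578T as circles, SUM149PT as squares and SUM159PT as triangles, shaded by role. HS578T lies to the right for most enzymes and for INSIG1, and far to the left for EBP, ABCA1 and ABCG1; positions of different genes cannot be compared.

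HMGCS1 was the enzyme with the largest surplus in HS578T. It read 4775, 4470 and 4326 there, 400.3, 375 and 354 in SUM149PT and 805, 971 and 774 in SUM159PT. On this probe set the 3 lines were fully apart, and the highest mean was 12 times the lowest. The second HMGCS1 probe set also put HS578T above SUM149PT and SUM159PT, by 3.37 and 3.28. There SUM149PT minus SUM159PT was -0.09, against -1.14 on the kept probe set. On the kept probe set HS578T was higher by 3.53 ± 0.11 than SUM149PT and by 2.40 ± 0.11 than SUM159PT (adjusted p = 1.63e-18 and 4.19e-15 by limma). INSIG1 was also highest in HS578T, but with the SUM lines in the opposite order. It read 9253, 9913 and 9749 in HS578T, 2579, 2591 and 2665 in SUM149PT and 1785, 1441 and 1697 in SUM159PT. HS578T was higher than SUM149PT and SUM159PT by 1.88 ± 0.10 and 2.55 ± 0.10 (adjusted p = 2.84e-14 and 1.49e-16 by limma).

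Further down the pathway SQLE read 10200, 10760 and 11340 in HS578T, 2234, 2649 and 2258 in SUM149PT and 4094, 3947 and 3719 in SUM159PT. HS578T was above all arrays of both lines, by 2.17 ± 0.09 and 1.45 ± 0.09 (adjusted p = 5.74e-16 and 1.76e-12). SC5D, the desaturase that acts just after EBP, read 5818, 6287 and 6066 in HS578T against 1294 to 1433 in SUM149PT and 1576 to 1691 in SUM159PT. Its differences were 2.13 ± 0.07 and 1.89 ± 0.07 (adjusted p = 1.40e-17 and 2.10e-16). LSS, which closes the sterol rings, read 6453 to 6954 in HS578T, 2432 to 3014 in SUM149PT and 1949 to 2050 in SUM159PT, with no overlap between lines, though the mean of its 3 probe sets turned the order of the SUM lines (-0.076, adjusted p = 0.65 by limma). ACAT2, MVD, MSMO1, DHCR7, MVK, HSD17B7 and FDPS completed the 11, with differences from SUM149PT between 0.41 for FDPS and 1.73 for MVD. Of the enzymes outside the 11, IDI1 was level with SUM149PT (0.02 ± 0.11), PMVK was highest in SUM159PT (1667 ± 169, SD, n = 3), and TM7SF2 and NSDHL were highest in SUM149PT (176 ± 11.4 and 2238 ± 215).

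SREBF2 itself was higher in HS578T, at 558, 536 and 533 against 205, 287 and 324 in SUM149PT and 263, 251 and 304 in SUM159PT. The SUM lines overlapped each other and HS578T was above both, by 0.98 ± 0.16 and 0.96 ± 0.16 (adjusted p = 7.69e-06 and 1.35e-05 by limma). Another SREBF2 probe set gave 0.54 and 1.18, and a dimmer one 0.26 and -0.51. The surplus over SUM159PT thus did not hold on every probe set. SCAP differed little, with 0.28 ± 0.08 over SUM149PT (adjusted p = 0.00581, but 0.18 and 0.233 with each array centred on its median) and 0.18 ± 0.08 over SUM159PT (adjusted p = 0.0744). The carrier STARD4 was higher in HS578T (1104 to 1144) than in both SUM lines (802 to 877 and 781 to 847), which overlapped.

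SUM149PT led in a different set of members. NPC1 was highest there (3795 to 4446), followed by HS578T (3329 to 3760) and SUM159PT (1631 to 1917), although the mean of its 4 probe sets put HS578T above SUM149PT by 0.26 (adjusted p = 0.0732 by limma). NPC2 likewise had its highest values in SUM149PT (10550 to 12030), above SUM159PT (7975 to 9279) and HS578T (7135 to 7914). CH25H read 89.5, 83.2 and 78.2 in SUM149PT but 6.94 to 24.7 in SUM159PT and 12.1 to 23.6 in HS578T. The last 2 lines overlapped, and SUM149PT was apart by 1.66 ± 0.25 from SUM159PT (adjusted p = 3.11e-06 by limma), while HS578T minus SUM149PT was -1.54 ± 0.25 (adjusted p = 7.27e-06). CH25H was dim in SUM159PT and HS578T, so both sizes depend on the offset. MYLIP also had its highest mean in SUM149PT, at 1020 ± 89.0, against 576 ± 27.1 in HS578T and 534 ± 216 in SUM159PT.

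The export pumps ran low in HS578T. ABCA1 read 55.6, 65.3 and 57.5 there, 182, 146 and 231 in SUM149PT and 149.6, 142 and 148 in SUM159PT. HS578T lay below all DMSO arrays of the SUM lines, which overlapped each other. The differences were -1.40 ± 0.20 and -1.11 ± 0.20 (adjusted p = 1.11e-06 and 3.57e-05 by limma). The SUM149PT scramble arrays of the shRNA experiment read 51.5 to 70.1 and overlapped those of HS578T, so low ABCA1 was not particular to HS578T. ABCG1 read 21.3, 7.72 and 8.10 in HS578T against 113 to 155 and 89.8 to 122 in the SUM lines, with no overlap (adjusted p = 2.52e-09 and 1.50e-08 by limma). The sources used here hold no detection calls, and these HS578T signals are as low as those of some markers of cells not in the culture. No size of the difference is therefore given. Among the 3 other ABCG1 probe sets the difference from SUM149PT was -0.89, -0.36 and 0.30. LPIN1 was close in HS578T (1957 to 2051) and SUM159PT (2068 to 2166), with a difference of -0.08 ± 0.07 (adjusted p = 0.333 by limma), and lower in SUM149PT (854 to 930.0).

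EBP, the isomerase that moves the sterol double bond before SC5D acts, broke the pattern of the enzymes. Its signal on the 6 HS578T arrays ran from 3.53 to 17.6, and on the 18 arrays of both other lines from 2586 to 4597. HS578T was lower than SUM149PT and SUM159PT under DMSO (adjusted p = 1.00e-20 and 2.76e-20 by limma). Its DMSO arrays read 5.01 to 5.49. Means of the adipocyte markers in the same cells were 8.91 for ADIPOQ, 10.4 for PLIN1 and 161 for FABP4, so these markers give no single background level. At such low signals the size of the difference depends on the offset, and no fold is given. Both AZD3965 and DMSO arrays of HS578T showed it. Of the other 3 EBP probe sets, 2 also separated the line, with 5.15 to 44.0 against 1548 to 2769 and with 1.88 to 9.27 against 155 to 1230 (the third scramble array, the next being 278), and the last, dim everywhere, overlapped (9.36 to 56.9 against 18.4 to 82.8). The gene lies on chromosome X. Of its measured neighbours in RefSeq order, FTSJ1, the second gene before it, had a mean of 1190 ± 49.8 in HS578T under DMSO (SD, n = 3), TBC1D25, the next gene after it, 184.5 ± 32.9, and RBM3 after that 2454 ± 361. SLC38A5, the third gene before EBP, was low in every line, at 35.4 ± 8.01 in HS578T, 37.3 ± 4.39 in SUM149PT and 25.9 ± 31.2 in SUM159PT. FTSJ1 was lower in HS578T than in SUM149PT and SUM159PT, with differences of -0.998 ± 0.10 and -1.69 ± 0.10 (adjusted p = 5.51e-09 and 6.89e-13 by limma). WDR13, the third gene after EBP, was lower than in both as well, by -0.998 ± 0.17 and -2.05 ± 0.17 (adjusted p = 1.31e-05 and 1.97e-10). RBM3 was lower than in SUM159PT (-1.41 ± 0.22, adjusted p = 8.21e-06) and not called against SUM149PT (0.06 ± 0.22, adjusted p = 0.834). Likewise TBC1D25 (0.35 against SUM149PT, -0.64 against SUM159PT) and WAS (-0.64 and -0.89) were called lower against SUM159PT only. SSX1 and SSX3, further before EBP, went the other way. SSX1 was higher in HS578T by 4.33 and 3.44 (adjusted p = 1.01e-11 and 9.47e-10 by limma), SSX3 by 1.125 and 0.74 (adjusted p = 0.00629 and 0.0701). Both were dim in the SUM lines.

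**Figure D4:**
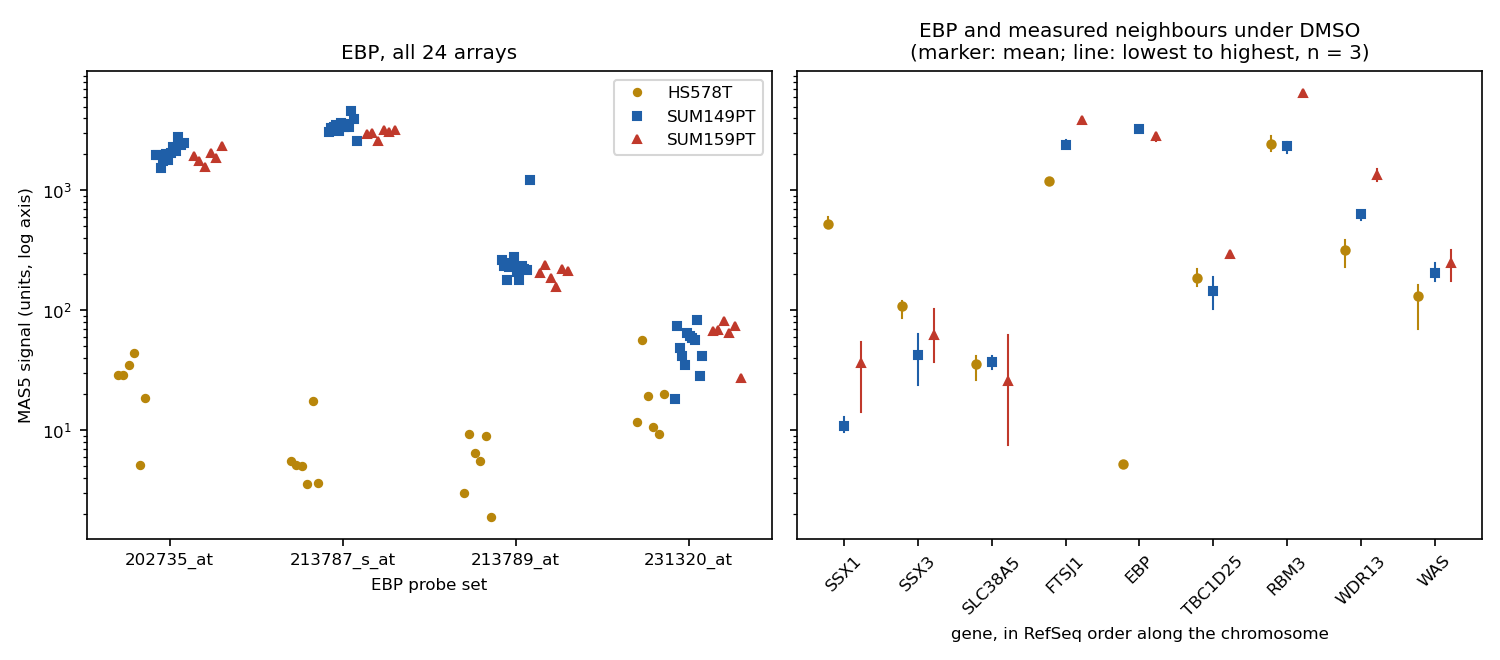
Left, MAS5 signal (y axis, log scale) of the 4 EBP probe sets on all 24 arrays, by line; right, mean signal under DMSO of EBP and its measured neighbours with lines from the lowest to the highest of 3 arrays, in RefSeq order (distance not to scale). HS578T falls to between 1.88 and 44.0 on the first 3 EBP probe sets, while its values for FTSJ1 and RBM3 average 1190 and 2454 units.

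The stretch just upstream of the EBP start (chrX:48521698-48521807, plus strand, GRCh38.p14) is shown because the transcript read so low in 1 line only; it is the reference sequence and says nothing of the copy in HS578T. Capitals mark the NF-Y boxes.
EBP: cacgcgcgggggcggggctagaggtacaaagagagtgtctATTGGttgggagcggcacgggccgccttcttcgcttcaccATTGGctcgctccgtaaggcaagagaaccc
It holds 2 boxes in these 110 bases and 3 in the 250 bases before the start.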

How the data were processed

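Biotin-labelled cRNA was hybridised to 24 Affymetrix arrays, per the labels. The authors deposited intensity values as MAS5 signals on a linear scale, per the submitters' processing notes; software version and probe annotation are not given in the sources used here. The deposited values had been scaled: leaving out the lowest and highest 2% of probe sets, each array averaged 500.1. Of 54675 probe sets 41097 had 1 symbol in the platform annotation used. Genes of several or no symbols, and the targeted gene, were not analysed.

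For each gene the probe set of highest mean log2(signal + 16) was kept, and genes with a mean at or above 5.58, the 40th percentile of probe sets, were tested. limma 3.58.1 in R 4.3.3 was fitted to 8 group means over all arrays (lmFit, eBayes with trend, 16 residual degrees of freedom), two-sided, with Benjamini-Hochberg adjustment over 14141 genes. Errors are SE for log2 changes and SD for signals; the number of arrays limits their precision.

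The members, the other pathway genes, the markers and the motifs were chosen with earlier results of these data known. Members that were called were to be named with every array, as were the partners of called members and the largest change of each role; other pathway genes by count and the 4 of smallest p. The fit was tested on simulated data. Deviations of same-numbered arrays correlated at -0.131 to 0.083, so arrays were not paired by number in the main fit. These values cannot tell whether same-numbered arrays were prepared together. Alternatives were quantile normalization, median centring, offsets 1 and 64, no filter, the mean of probe sets, array weights, only the groups compared, a replicate block and leaving out each array.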

Additional observations from a re-analysis of the deposited data

Results flagged for a closer look

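In SUM149PT, 7 members had an MCT1 shRNA effect that differed from the AZD3965 effect by the test of the difference itself (limma, 3 arrays per group). CH25H had the largest difference, 2.57 ± 0.35 (adjusted p = 5.19e-05), with all shRNA arrays above all scramble arrays and overlapping DMSO and AZD3965 arrays. However, CH25H passed the filter only through these shRNA arrays, and the fits that left out arrays used the same filtered genes. ABCA1 followed at 1.16 ± 0.28 (adjusted p = 0.0105), with effects of 0.79 for the shRNA and -0.37 for the inhibitor. LPIN1 differed by 0.33 ± 0.10 (adjusted p = 0.0387) although neither effect alone was called. Among the members with the lower shRNA effect, NPC2 differed by -0.58 ± 0.15 (adjusted p = 0.0151), IDI1 by -0.55 ± 0.16 (adjusted p = 0.0283), HMGCS1 by -0.49 ± 0.15 (adjusted p = 0.0449) and ACAT2 by -0.45 ± 0.12 (adjusted p = 0.0161). The call of CH25H held in 21 of 21 alternatives, that of ABCA1 in 20 and those of ACAT2 and NPC2 in 19 each. That of IDI1 was lost in 9, that of LPIN1 in 13 and that of HMGCS1 in 16, among them the fit without the third scramble array (adjusted p = 0.071, 0.0514 and 0.0629).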

How the results depend on the processing

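With 3 arrays per group and 16 residual degrees of freedom, small changes of dim genes are not detectable here. Of 150 alternative values for members called with the MCT1 shRNA, 130 kept direction and call and 20 kept direction only; for the difference of shRNA and AZD3965 effects these were 104 and 43 of 147. The cause of the changes below was not tested, except that fits on the groups compared have fewer arrays. The shRNA count of 10 became 4 with only the groups compared and 7 to 13 with single arrays left out. The count of 0 for AZD3965 in HS578T became 1 with quantile normalization, 1 with offset 1, 1 with only the groups compared and 2 with array weights; FDPS was called with quantile normalization, offset 1 and array weights, and DHCR7 with array weights. In SUM149PT it was 0 to 1 with single arrays left out, the 1 being INSIG1 without the first AZD3965 array, and between lines it was 2 with array weights and 0 to 1 with single arrays left out. The 7 differences of effects became 2 with median centring, 4 with the mean of probe sets, 11 with array weights, 3 with only the groups compared and 4 to 8 with single arrays left out. Counts under the alternatives are given without the share of all genes called in each, so they cannot be read against a background. The replicate block gave 10 shRNA calls, 5 differences of effects and 27 members over lines, with numbers that are not known to pair arrays. Using the mean of probe sets reversed NPC1 in HS578T minus SUM149PT (0.26 from -0.24) and LSS in SUM149PT minus SUM159PT (-0.076 from 0.42). Median centring moved the median of all genes to -0.12 for the shRNA, 0.14 for AZD3965 in HS578T and -0.12 for HS578T minus either line, so members were read against those medians: -0.28, 0.29, 0.31 and 0.74.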
